A study of Homo sapiens with 18 samples.

Results

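Interferon-stimulated genes encode the proteins with which a cell meets a viral infection, and 46 of them were followed in OVCAR-3 cells treated with a BET inhibitor. They were taken as a fixed list of symbols, each of which matched 1 Ensembl identifier among the 58825 genes counted, and the rule itself uses no measured value, though the list was chosen with earlier results of these data known. OVCAR-3 is an established line of high-grade serous ovarian carcinoma, so every sample is this 1 line. The cells stood in stripped medium with DMSO (the vehicle), 1 µM i-BET858 or 1 µM i-BET151, for 4 or 24 h, and 3 biological replicates were sequenced for each of these 6 conditions. Each time point had its own DMSO samples, and the labels name no addition of interferon in any sample. i-BET858 and i-BET151 both target the bromodomains through which BET proteins bind acetylated histones, and the study compared their effects on transcription.

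Type I and type III interferons bind receptors on the cell surface and activate the kinases JAK1 and TYK2, which phosphorylate STAT proteins. STAT2 and IRF9 are parts of the complex ISGF3, which then binds a short element, the interferon-stimulated response element (ISRE), in the promoters of its target genes. Type II interferon acts mainly through another element, GAS. Many carcinoma lines transcribe some of these genes without added interferon, and several of them code for the factors of the pathway itself.

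The ISRE is the sequence that links most of these genes, so it was looked up in the promoter windows of RefSeq (GRCh38.p14), which reach from 250 bases before to 50 bases after a transcription start. The core was spelled as a pair of GAAA blocks with any 2 bases between them (TTTC blocks on the other strand), and matches could overlap. Of the 46 genes, 37 matched a window by symbol. USP18, IFITM2, OAS2, GBP2, IFIT2, TRIM22, IRF7, OASL and MX2 were not matched. A core was found in 26 of the 37 (70.3%) and in 4.38% of all 27305 genes with a window. With 1 more C behind the last GAAA (or a G before the first TTTC), a spelling that only matches of the core can meet, it was found in 21 of 37 (56.8%) and in 0.952% of all genes. The GAS spelling TTCNNNGAA, the same on both strands, was found in 13 of 37 (35.1%) and in 9.38% of all genes. A match of letters is a description and not a site shown to be bound.

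6 stretches are printed, because they come from genes that moved in opposite directions after drug treatment while holding the same element. HERC5 and IFI6 rose, and ISG15, IFIT3, SAMD9 and IFITM3 fell at 24 h. Capitals mark the ISRE core on either strand, and each stretch lies upstream of the start, outside annotated exons, and is written 5′ to 3′ on the strand of the gene.
HERC5 (chr4:88456974-88457074, plus strand): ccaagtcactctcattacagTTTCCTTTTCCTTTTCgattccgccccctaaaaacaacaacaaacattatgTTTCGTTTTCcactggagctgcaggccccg
IFI6 (chr1:27672256-27672368, minus strand): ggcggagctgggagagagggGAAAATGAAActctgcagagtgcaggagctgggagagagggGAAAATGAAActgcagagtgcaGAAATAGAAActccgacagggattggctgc
ISG15 (chr1:1013364-1013419, plus strand): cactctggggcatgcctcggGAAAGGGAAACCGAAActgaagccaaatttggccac
IFIT3 (chr10:89327821-89327904, plus strand): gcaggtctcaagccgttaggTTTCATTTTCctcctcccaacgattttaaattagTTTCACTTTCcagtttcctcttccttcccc
SAMD9 (chr7:93118086-93118135, minus strand): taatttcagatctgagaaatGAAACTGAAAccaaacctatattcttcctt
IFITM3 (chr11:320866-320932, minus strand): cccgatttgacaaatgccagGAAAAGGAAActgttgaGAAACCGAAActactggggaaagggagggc

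Among the genes that fell with i-BET858 at 24 h, 19 of the 26 with a window held a core, among those that rose 2 of 3 did, and among those not called 5 of 6 did. IRF1, UBE2L6, HERC6, OAS1, SAMD9L, PSMB9 and IFI35 fell without a match in the window, and STAT2 rose without one.

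**Figure D1:**
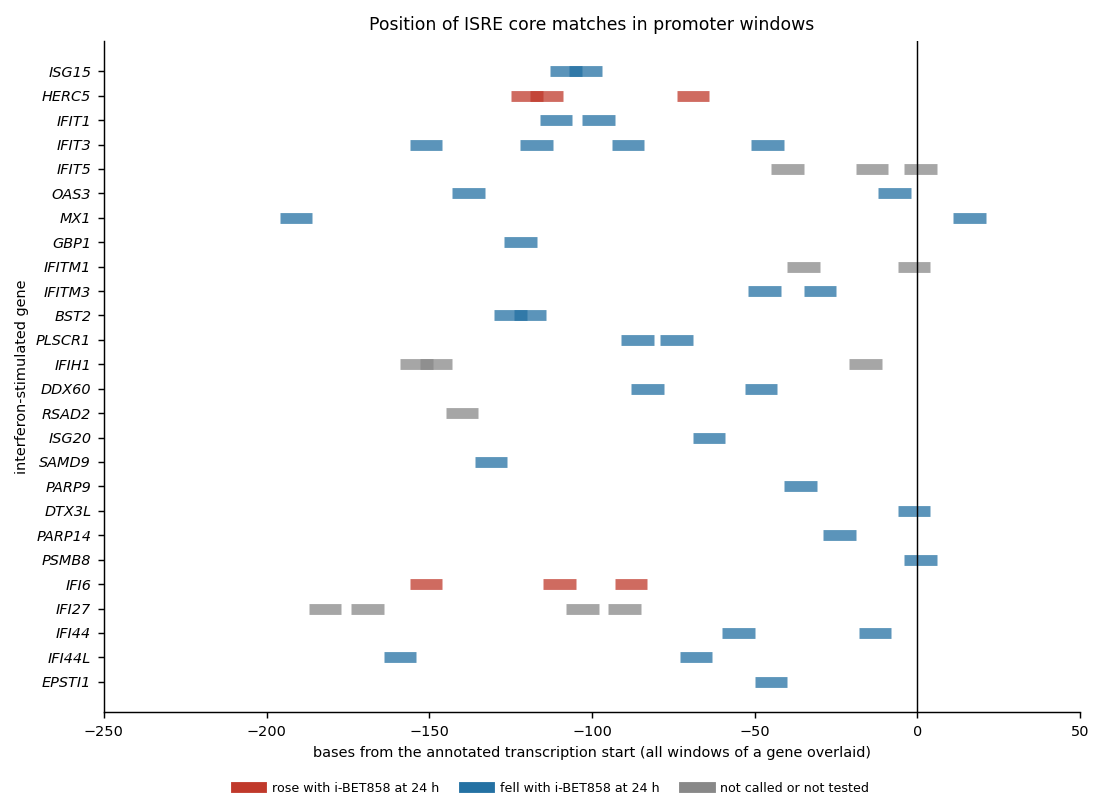
Each bar is 1 match of the ISRE core in the promoter windows of the 26 genes that hold one, plotted by its distance in bases from the annotated start (0). Colour gives the call for i-BET858 at 24 h, and bars of HERC5 and IFI6, which rose, lie in the same upstream stretch as many bars of the genes that fell.

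The libraries held 27323969 to 46299994 counts, at which 3 counts, the limit that a count of 0 allows, stand for 0.0648 to 0.110 CPM, a count relative to the size of its library. Values below are CPM after TMM normalisation within a time point. The limit of 3 counts covers counting error only, while the intervals between the drugs come from the fit and include the spread between replicates. The 6 libraries of replicate 3 stood apart, with a count in 17817 to 20642 genes against 23674 to 24947 in the other libraries, so counts of calls are also given without them. All 8 markers of an epithelial ovarian line (PAX8, EPCAM, KRT7, KRT8, KRT18, MUC16, WT1 and MSLN) were at 57.0 CPM or more in every library. Of 6 immune markers none passed 2.21 CPM in a library, and PTPRC, CD3E and CD68, which mark leukocytes, T cells and macrophages, had group means of at most 0.203 CPM, though CD68 shares 85.6% of its exon length with other genes, from which a count of whole genes may drop reads. At 4 h the immune list summed to 1.39 to 3.16 CPM over all groups. At 24 h it summed to 1.53 to 3.25 CPM in DMSO, 1.04 to 1.5 CPM with i-BET858 and 0.0598 to 0.869 CPM with i-BET151. The 6 fibroblast and endothelial markers summed to 24.8 to 54.5 CPM at 4 h, and at 24 h to 31.9 to 41.9 CPM in DMSO, 23.2 to 34.1 CPM with i-BET858, where COL1A2 was called lower, and 24.4 to 32.9 CPM with i-BET151. The summed level of the epithelial markers at 4 h was 8096 to 9603 CPM in DMSO, 10880 to 11470 CPM with i-BET858, where 2 of the 8 were called higher by edgeR, and 9135 to 9677 CPM with i-BET151. At 24 h it was 8815 to 10170 CPM in DMSO and 6256 to 7050 CPM with a drug, with KRT8, KRT18 and KRT7 called lower with both drugs. The part of these shifts in the results below was not tested.

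Before any comparison, the genes differed widely in level. To compare genes, CPM were divided by exon length. In DMSO at 24 h, UBE2L6, the enzyme that carries ISG15 to its targets, led with a mean of 44.9 CPM per kb. It was followed by ISG15, the ubiquitin-like modifier itself, at 40.1, DTX3L, a ubiquitin ligase, at 38.4, and IFITM3, a membrane protein that blocks virus entry, at 34.6 CPM per kb. The ranges over 3 libraries were 40.7 to 52.0 for UBE2L6, 38.4 to 43.4 for ISG15, 36.4 to 40.0 for DTX3L and 27.7 to 48.1 for IFITM3. Each overlapped that of its neighbour in this order, while UBE2L6 lay above DTX3L in all libraries. PLSCR1, a scramblase of the plasma membrane, came next at 18.3 CPM per kb with a highest library of 19.1, below all libraries of the leading 4.

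At the other end, some genes were barely read. IRF9, the DNA-binding part of ISGF3, had 0 to 11 counts per library and at most 0.308 CPM. It was too low to be tested, and 27.2% of its exon length is shared with other annotated genes, from which a count of whole genes may drop reads. XAF1 was listed at 0 in all 18 libraries, with 38.3% of its exon length shared. OAS2 had 0 to 20 counts, and no count in the 6 drug libraries of 24 h. In all, 20 of the 46 genes share exon sequence with another gene, and how this bears on their levels and their differences between groups was not tested.

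**Figure D2:**
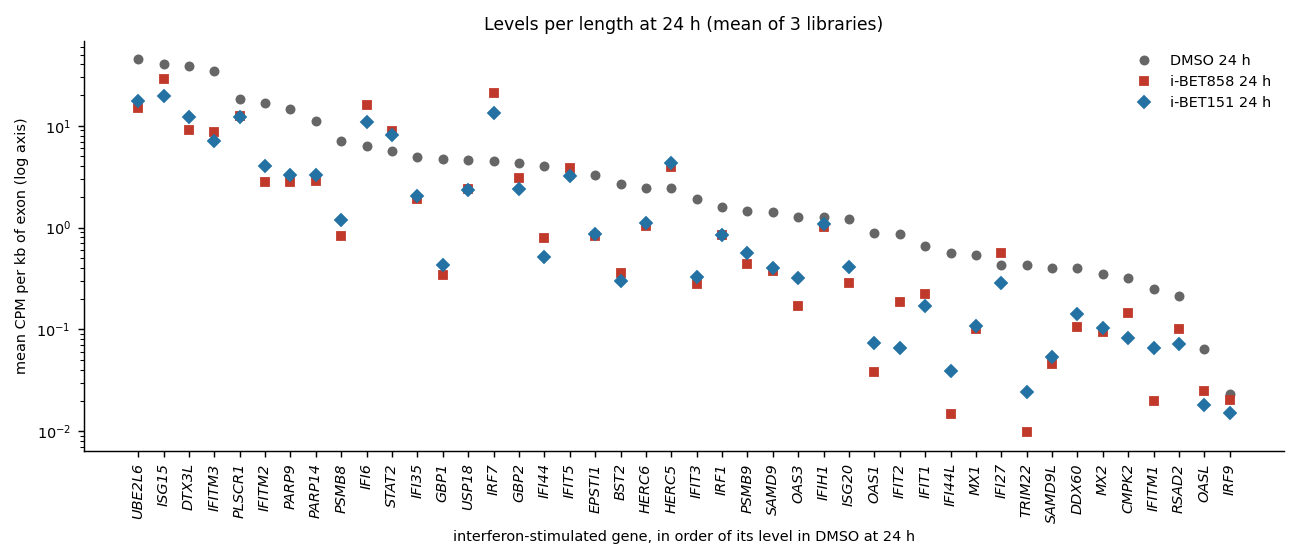
Mean CPM per kb of exon (log axis) of 44 interferon-stimulated genes at 24 h in DMSO, i-BET858 and i-BET151 (3 libraries each), ordered by the DMSO level; OAS2 and XAF1 are left out because at least 1 group is at 0. Most drug points lie below the DMSO point of their gene, while IRF7, IFI6, STAT2 and HERC5 lie above it.

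At 4 h the response of these genes to i-BET858 was mixed. IRF7, HERC5, IFI6 and IFIH1 rose, while IFIT3, DTX3L, SAMD9L, IFIT5, PARP9, PLSCR1, USP18 and GBP1 fell. These were 4 higher and 8 lower calls among the 43 genes that passed the low-count filter (OAS2, IRF9 and XAF1 did not), by edgeR's quasi-likelihood test at an adjusted p under 0.05. The share called, 27.9%, was near that of all 17192 genes tested, 30.8% (14.5% higher and 16.3% lower), and so is no result about these genes as a list. Their median log2 fold change was 0.033, beside 0.023 over all genes. In bulk samples, fewer cells that express a gene and less RNA per cell cannot be told apart.

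With i-BET151 at 4 h, IRF7 and HERC5 rose and 10 genes fell, the 8 named above without exception and also IFIT2 and SAMD9. The share called was again 27.9% of 43, against 16.2% of all genes (7.81% higher and 8.43% lower), with a median log2 fold change of −0.22 beside 0.0082 over all genes. Both comparisons share the DMSO libraries, so their likeness is not independent. With the replicate number as a block, 20 genes were called for each drug at 4 h, 10 higher and 10 lower for i-BET858 (45.4% of all genes called) and 5 higher and 15 lower for i-BET151 (32.7% of all genes). Without replicate 3 the counts were 15 and 14, of which 8 and 4 were higher, beside 41.9% and 25.9% of all genes called. For i-BET151, leaving out DMSO replicate 1 left 7 calls.

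IRF7, a factor that amplifies interferon transcription, gave the largest rise. It was at 11.6, 9.80 and 9.42 CPM in DMSO, at 64.3, 71.7 and 55.4 CPM with i-BET858 and at 42.7, 44.4 and 25.9 CPM with i-BET151 after 4 h. No treated library reached down to a DMSO library, and no i-BET151 library reached up to an i-BET858 library. The rise on the log2 scale was 2.63 ± 0.21 (SE; adjusted p = 7.16e-06), or 6.21-fold, for i-BET858 and 1.87 ± 0.21 (adjusted p = 0.000169) for i-BET151.

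IFI6, a small membrane protein that opposes cell death, was at 5.02, 4.12 and 3.87 CPM in DMSO and at 16.6, 15.2 and 7.53 CPM with i-BET858 after 4 h, a log2 fold change of 1.59 ± 0.28 (adjusted p = 0.00121). With i-BET151 it was at 7.2, 7.07 and 6.49 CPM, above every DMSO library, with a log2 fold change of 0.67 ± 0.28 that was not called (adjusted p = 0.129), though it was with the replicate block, without replicate 3 of all groups and without i-BET858 replicate 3 alone. LINC02574 shares 23.1% of the exon length of IFI6 on the same strand.

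HERC5, the ligase that joins ISG15 to new proteins, had 10.9, 9.35 and 5.50 CPM in DMSO, 19.2, 21.3 and 12.9 CPM with i-BET858 and 19.8, 20.4 and 13.2 CPM with i-BET151 after 4 h. In each group replicate 3 was the lowest. Every drug library lay above every DMSO library, while the libraries of the 2 drugs overlapped. The log2 fold change was 1.05 ± 0.28 for both drugs (adjusted p = 0.0142 and 0.0254). The i-BET858 call was lost without i-BET858 replicate 2 or DMSO replicate 3 (adjusted p = 0.0627 and 0.0502), and the i-BET151 call without DMSO replicate 2 or 3 or i-BET151 replicate 1 or 2 (adjusted p from 0.0635 to 0.0939).

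IFIH1, also called MDA5, senses long double-stranded RNA in the cytosol. It was at 8.71, 7.05 and 5.71 CPM in DMSO and at 13, 15.1 and 10.1 CPM with i-BET858 after 4 h, a log2 fold change of 0.83 ± 0.22 (adjusted p = 0.0138). This call was lost without DMSO replicate 2, DMSO replicate 3 or i-BET858 replicate 2, with adjusted p between 0.0518 and 0.0623.

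Among the falls at 4 h, IFIT3 and DTX3L stood out. IFIT3, a partner of IFIT1 in binding viral RNA, went from 9.92, 8.92 and 7.95 CPM in DMSO to 2.04, 2.16 and 1.43 CPM with i-BET858 and 1.5, 2.20 and 3.48 CPM with i-BET151. Every treated library lay below every DMSO library. IFIT3 thus fell by 2.25 ± 0.32 (adjusted p = 0.000321) and by 1.89 ± 0.32 (adjusted p = 0.00205) on the log2 scale. DTX3L, at 239, 245 and 240 CPM in DMSO, was at 79.7, 78.1 and 89.0 CPM with i-BET858 and at 106, 106 and 114 CPM with i-BET151. Again no groups overlapped, and the falls were by 1.55 ± 0.10 (adjusted p = 2.11e-06) and by 1.15 ± 0.10 (adjusted p = 4.10e-05) on the log2 scale. PARP9, the partner of DTX3L, begins next to it on chromosome 3 and is read in the other direction, and it fell by 0.76 and 0.78 on the log2 scale.

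IFIT5, which binds RNA as a single unit, was at 19.6, 14.7 and 18.7 CPM in DMSO and at 7.85, 9.20 and 9.27 CPM with i-BET858 after 4 h, a log2 fold change of −1.01 ± 0.17 (adjusted p = 0.00104). With i-BET151 it was at 10.4, 11.9 and 11.4 CPM (log2 fold change −0.65 ± 0.17, adjusted p = 0.0234), a call that was lost in 4 of the 9 fits with 1 library left out. SAMD9L, an inhibitor of translation and growth, fell by 1.30 and 1.64 on the log2 scale from 2.48 to 3.16 CPM in DMSO. Its calls had adjusted p = 0.0486 and 0.0319, and leaving out 1 library ended them in 7 and 5 of 9 fits (adjusted p up to 0.128 and 0.0985). The calls of USP18 were lost in 4 (i-BET858) and 6 (i-BET151) of 9 such fits, those of PLSCR1 in 5 for each drug, and that of GBP1 with i-BET858 in 2.

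For i-BET151 at 4 h the largest fall was that of IFIT2, from 4.05, 2.22 and 3.68 CPM in DMSO to 0.815, 0.355 and 1.30 CPM. The log2 fold change was −1.99 ± 0.46 (adjusted p = 0.0129) and was not called without DMSO replicate 1 (adjusted p = 0.0579). SAMD9, a neighbour and relative of SAMD9L on chromosome 7, fell by 0.97 ± 0.20 on the log2 scale (adjusted p = 0.00661).

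Most of the genes known as the core of the interferon response did not pass the test at 4 h. For i-BET858, ISG15 had a log2 fold change of 0.62 ± 0.27 (adjusted p = 0.110), STAT2 of 0.59 ± 0.24 (adjusted p = 0.0878) and IRF1 of 0.42 ± 0.18 (adjusted p = 0.112). The replicate block called these 3 higher for i-BET858, and for i-BET151 it called STAT2 higher and OAS1 and MX1 lower. Over the alternatives other than leaving out a library, the adjusted p of STAT2 with i-BET858 ran from 0.000971 to 0.249. OAS1, which makes the messenger that activates RNase L, had log2 fold changes of −0.31 ± 0.27 with i-BET858 and −0.57 ± 0.27 with i-BET151. MX1, a GTPase that traps viral particles, had −0.17 ± 0.34 and −0.63 ± 0.35. IFIT1, which binds RNA lacking a methylated cap, varied widely, from 0.588 to 4.70 CPM in the i-BET858 libraries and from 1.64 to 4.84 CPM in DMSO, with log2 fold changes of −0.041 ± 0.72 and −0.56 ± 0.73. IRF1 with i-BET151 was at 0.014 ± 0.18.

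**Figure D3:**
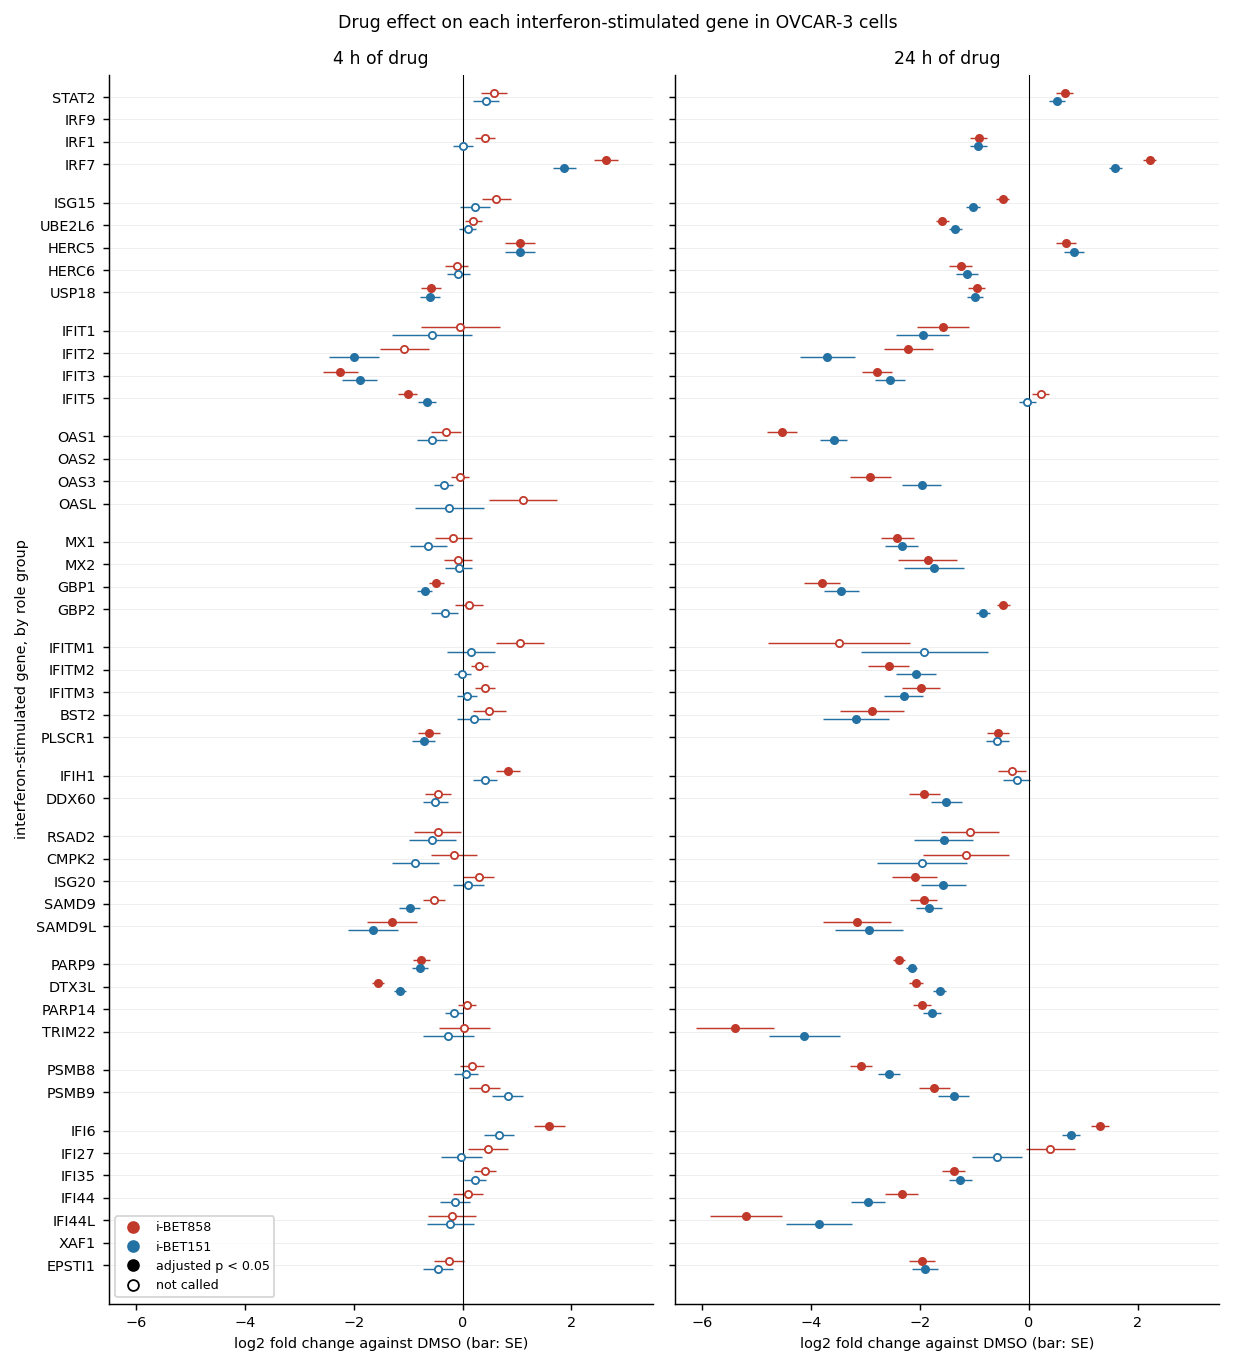
Log2 fold change against DMSO with its standard error for each interferon-stimulated gene, grouped by role from STAT2 and the IRF factors at the top to other induced genes at the bottom, at 4 h (left) and 24 h (right). Filled points passed an adjusted p of 0.05; points scatter on both sides of 0 at 4 h, and at 24 h all but 6 (i-BET858) or 4 (i-BET151) lie below it.

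By 24 h nearly the whole list lay below DMSO with both drugs. TRIM22, IFI44L, OAS1 and GBP1 fell most with i-BET858, followed by SAMD9L, and with i-BET151 IFIT2 joined them. With each drug 32 genes fell and 4 rose among the 42 that passed the filter (OASL, OAS2, IRF9 and XAF1 did not), and the 4 that rose were IRF7, IFI6, HERC5 and STAT2 in both comparisons, which share their DMSO libraries. The share lower was 76.2%, against 21.3% of all 17157 genes for i-BET858 and 16.6% for i-BET151. The share higher was 9.52%, against 20.5% and 17.2%. At least 2-fold lower were 27 genes with i-BET858 (11.2% of all genes) and 29 with i-BET151 (8.09% of all genes). The median log2 fold change was −1.93 for i-BET858 and −1.76 for i-BET151, beside −0.012 and 0.0046 over all genes. All 3 drug libraries lay below all 3 DMSO libraries for 34 genes with i-BET858 (28.3% of all genes) and for 35 with i-BET151 (24.9% of all genes). Without replicate 3, 39 and 41 genes were called, 35 and 37 of them lower, beside 31.0% and 28.1% of all genes called lower.

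The summed level of the 46 genes shows the same in each library. It was 1147 to 1215 CPM in DMSO at 24 h, 519.5 to 526.9 CPM with i-BET858 and 502.6 to 529.3 CPM with i-BET151. At 4 h it was 1100 to 1205 CPM in DMSO, 991.8 to 1128 CPM with i-BET858, which overlapped DMSO, and 855.9 to 997.9 CPM with i-BET151. DTX3L alone made up 221 CPM of the DMSO mean of 1190 CPM at 24 h, so the sum weighs a few abundant genes.

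TRIM22, an antiviral ubiquitin ligase, was at 3.58, 2.24 and 10.2 CPM in DMSO at 24 h and at 0.0872, 0.224 and 0.0589 CPM with i-BET858, from 4, 8 and 2 counts. With i-BET151 it was at 0.273, 0.215 and 0.419 CPM. Every drug library lay below every DMSO library, and DMSO replicate 3 was far above the other DMSO libraries. The log2 fold change was −5.41 ± 0.72 for i-BET858 (adjusted p = 0.000158) and −4.13 ± 0.65 for i-BET151 (adjusted p = 0.000748). Without DMSO replicate 3 these became −4.52 and −3.24, and without i-BET858 replicate 2 the former became −6.09.

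IFI44L, an induced protein of the cytoplasm, was at 5.63, 4.44 and 9.31 CPM in DMSO at 24 h, at 0.196, 0.0841 and 0.236 CPM with i-BET858 and at 0.174, 0.245 and 0.927 CPM with i-BET151. No groups overlapped with DMSO, and the log2 fold changes were −5.20 ± 0.66 for i-BET858 (adjusted p = 0.000126) and −3.85 ± 0.60 for i-BET151 (adjusted p = 0.000715). Without i-BET151 replicate 3 the latter became −4.94. OAS1 fell from 13.2, 10.3 and 10.8 CPM to 0.393, 0.532 and 0.560 CPM with i-BET858 and 0.795, 0.890 and 1.17 CPM with i-BET151. It fell by 4.53 ± 0.27 (adjusted p = 1.13e-06) and by 3.59 ± 0.26 (adjusted p = 5.70e-06) on the log2 scale, with smaller errors than TRIM22 and IFI44L. GBP1, a GTPase that coats intracellular pathogens, fell from 27.2, 26.2 and 32.3 CPM to 1.24, 1.99 and 2.98 CPM with i-BET858 and to 2.31, 1.87 and 3.68 CPM with i-BET151. At 4 h the same gene had fallen by 0.48 and 0.70 on the log2 scale, and at 24 h it fell by 3.80 and 3.45.

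IFIT2, a partner of IFIT3, was at 4.45, 3.24 and 3.55 CPM in DMSO at 24 h, at 0.567, 0.449 and 1.41 CPM with i-BET858 and at 0.224, 0.307 and 0.329 CPM with i-BET151. All i-BET151 libraries lay below all i-BET858 libraries. The log2 fold changes were −2.21 ± 0.46 and −3.70 ± 0.50, and that of i-BET858 became −2.85 with i-BET858 replicate 3 left out. SAMD9L was at 2.89 to 3.62 CPM in DMSO and at 0.196, 0.196 and 0.707 CPM with i-BET858, a log2 fold change of −3.15 ± 0.63 (adjusted p = 0.00219) that became −4.00 without replicate 3 of that drug.

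**Figure D4:**
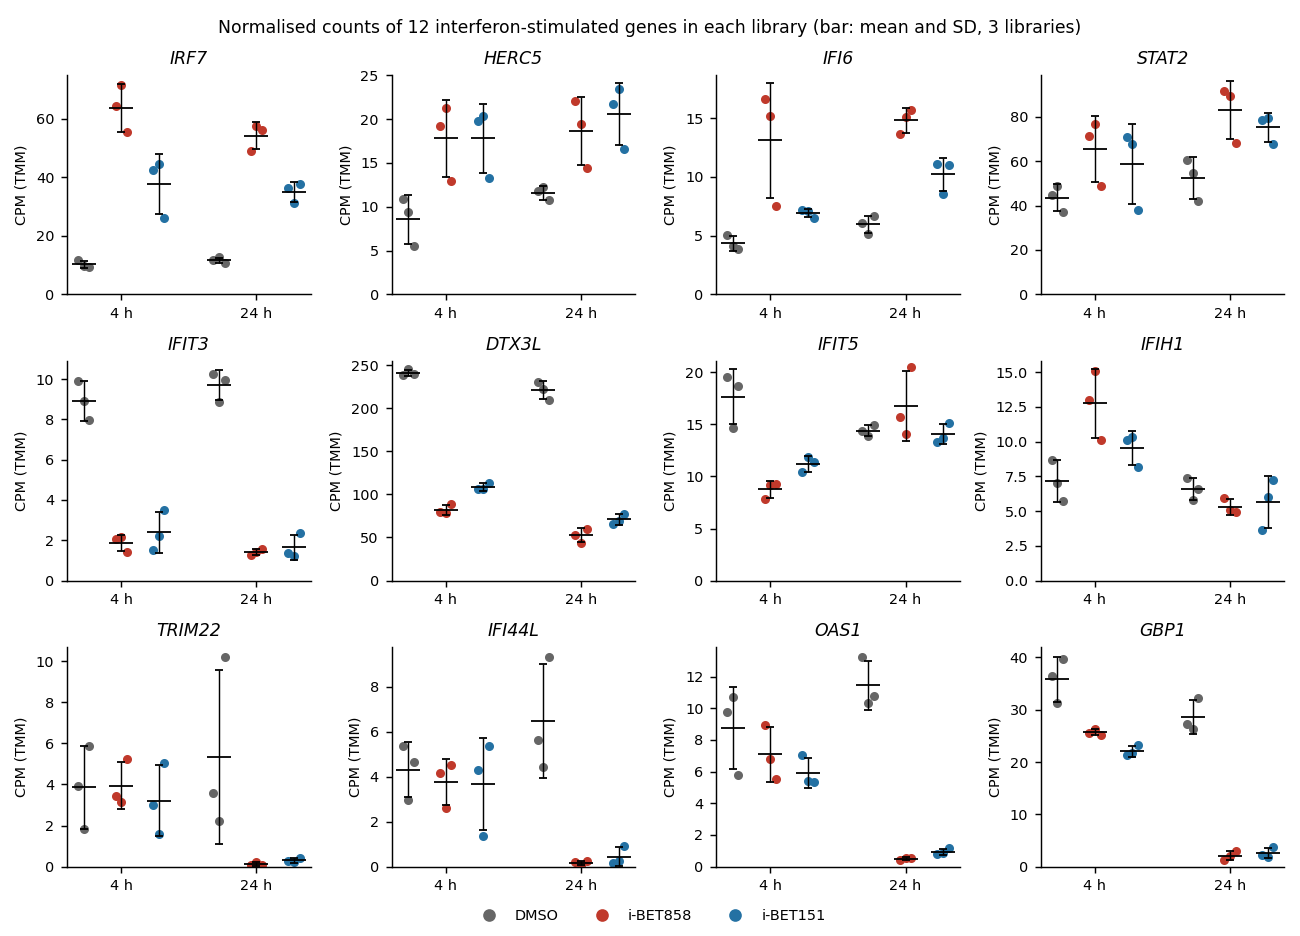
TMM-normalised CPM of 12 interferon-stimulated genes in each of the 18 libraries (points; bar, mean and SD of 3), with DMSO, i-BET858 and i-BET151 from left to right at 4 h and at 24 h, each panel on its own linear axis from 0. The top row holds the genes that rose, the middle row genes called at 4 h, and the bottom row the largest falls of 24 h, where OAS1 drops from 10.3 or more to 1.17 CPM or less.

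By role, every tested member of the OAS, GTPase, immunoproteasome and PARP and ligase groups fell at 24 h, and the other groups held exceptions. These are groups of 2 to 4 tested genes, and of all genes 21.3% and 16.6% were called lower. Of the 4 OAS synthetases OAS2 and OASL could not be tested, and the other two fell, OAS3 with log2 fold changes of −2.91 and −1.97, the latter −2.57 without i-BET151 replicate 3. All 4 antiviral GTPases (MX1, MX2, GBP1 and GBP2) fell with both drugs, MX1 from 8.84, 8.23 and 12.2 CPM to 2.09, 2.21 and 1.15 CPM with i-BET858 (log2 fold change −2.42 ± 0.30) and to 2.24, 2.09 and 1.47 CPM with i-BET151 (−2.34 ± 0.30). GBP2, at −0.47 and −0.84, moved least of these. The call of MX2 was lost in 4 of 9 fits with 1 library left out for each drug (adjusted p up to 0.0646 and 0.0975). Both immunoproteasome subunits fell, PSMB8 by 3.08 and 2.57 and PSMB9 by 1.74 and 1.38 on the log2 scale. They overlap each other on chromosome 6, over 17.3% of the exon length of PSMB8 together with an antisense gene.

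Of the membrane proteins that restrict entry or release of viruses, IFITM2, IFITM3 and BST2 fell with both drugs. IFITM3 had −1.99 and −2.29, IFITM2 −2.58 and −2.07 (−2.72 without i-BET151 replicate 3) and BST2 −2.88 and −3.17. IFITM1 was low, at 0.301 to 0.517 CPM in DMSO and 0 to 0.0561 CPM with i-BET858, and was not called (log2 fold change −3.48 ± 1.30, adjusted p = 0.0526). It was called in some other fits, among them DESeq2 and the fit with the replicate block. All 4 of the PARP and ligase group fell, PARP9 by 2.39 and 2.15, DTX3L by 2.08 and 1.64 and PARP14 by 1.96 and 1.77 on the log2 scale. PARP9 went from 124 to 135 CPM in DMSO to 22.5 to 26.8 CPM with i-BET858, a spread between replicates that was small beside the change (adjusted p = 3.02e-07).

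The IFIT group split. IFIT1, IFIT2 and IFIT3 fell, but IFIT5 was not called, with 15.7, 14.1 and 20.5 CPM with i-BET858 and 13.3, 13.7 and 15.2 CPM with i-BET151 against 14.3, 13.9 and 14.9 CPM. Its groups overlapped, and its log2 fold changes were 0.22 ± 0.16 and −0.030 ± 0.16. IFIT1, with log2 fold changes of −1.58 ± 0.47 and −1.95 ± 0.48 (adjusted p = 0.0206 and 0.00988), was not called without DMSO replicate 1 (−1.04 and −1.41), nor, for i-BET858, without replicate 1 or 3 of that drug (adjusted p = 0.0704 and 0.0513). Of the RNA helicases DDX60 fell, and IFIH1, which had risen at 4 h with i-BET858, had −0.31 ± 0.25 and −0.22 ± 0.25. RSAD2, CMPK2 and IFI27, all at 1.77 CPM or less on average in DMSO at 24 h, were the other genes not called with i-BET858. With i-BET151, RSAD2 was called lower, a call lost in 7 of 9 fits with 1 library left out (adjusted p up to 0.196), and PLSCR1 was not called (adjusted p = 0.0502). The replicate block called both PLSCR1 and CMPK2 lower with i-BET151. The call of PLSCR1 with i-BET858 was lost in 7 of 9 such fits, and that of ISG20 with i-BET151 without i-BET151 replicate 2 (adjusted p = 0.0567).

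The ISG15 pathway also split. ISG15 itself fell from 33.3, 33.5 and 37.6 CPM to 24.8, 28.0 and 21.9 CPM with i-BET858 and to 18.1, 16.4 and 16.6 CPM with i-BET151. No groups overlapped, and it fell by 0.48 ± 0.12 (adjusted p = 0.00911) and by 1.03 ± 0.12 (adjusted p = 0.000143) on the log2 scale. The former was not called with all 18 libraries in 1 fit (adjusted p = 0.130, the highest of the alternatives, whose lowest was 0.00193). UBE2L6 fell by 1.59 and 1.35 and USP18, which removes ISG15 from proteins and restrains the receptor, by 0.96 and 0.99 on the log2 scale. HERC5 and HERC6 lie next to each other on chromosome 4 and code for related ligases. HERC5 rose to 22.1, 19.4 and 14.4 CPM with i-BET858 and 21.7, 23.5 and 16.6 CPM with i-BET151 from 11.8, 12.2 and 10.8 CPM (log2 fold changes 0.69 ± 0.18 and 0.83 ± 0.18, adjusted p = 0.0116 and 0.00547). HERC6 fell from a mean of 14.1 to 5.92 and 6.43 CPM (−1.25 ± 0.21 and −1.14 ± 0.21). The call of HERC5 with i-BET858 was lost without i-BET858 replicate 1 (adjusted p = 0.0598).

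Of the signalling factors, IRF7 and STAT2 rose and IRF1 fell at 24 h. IRF7 was at 11.6, 12.6 and 10.8 CPM in DMSO, 49.1, 57.5 and 56.3 CPM with i-BET858 and 36.5, 31.2 and 37.6 CPM with i-BET151, again without overlap. It rose by 2.22 ± 0.12 (adjusted p = 8.18e-07) and by 1.59 ± 0.12 (adjusted p = 8.45e-06) on the log2 scale. STAT2 was at 60.8, 54.7 and 42.3 CPM in DMSO, 91.8, 89.3 and 68.1 CPM with i-BET858 and 78.5, 79.2 and 67.8 CPM with i-BET151. Every drug library was above every DMSO library, and the rise on the log2 scale was 0.66 ± 0.16 for i-BET858 (adjusted p = 0.00590) and 0.52 ± 0.16 for i-BET151 (adjusted p = 0.0256). The latter was lost without DMSO replicate 2 or 3 or i-BET151 replicate 1 or 2 (adjusted p from 0.0615 to 0.0908), with scaling to total counts and with all 18 libraries in 1 fit. IRF1, a factor induced mainly by type II interferon, fell from 20.1, 17.7 and 21.0 CPM to 9.57, 10.6 and 10.8 CPM and to 8.99, 9.54 and 12.4 CPM, a log2 fold change of −0.93 ± 0.16 for each drug (adjusted p = 0.000852 and 0.00122). An antisense gene and another overlap 22.9% of the exon length of IRF1.

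IFI6 completes the 4 that rose, from 6.10, 5.17 and 6.63 CPM to 13.7, 15.1 and 15.7 CPM with i-BET858 and 11.1, 8.56 and 11.0 CPM with i-BET151 (1.31 ± 0.17 and 0.78 ± 0.17, adjusted p = 0.000131 and 0.00472). The order of levels per length also changed. With i-BET858 at 24 h, ISG15 led at 28.7 CPM per kb, followed by IRF7 at 20.8 and IFI6 at 15.8, and their ranges over libraries did not overlap, since ISG15 lay at 25.3 or more, IRF7 at 18.8 to 22.0 and IFI6 at 16.8 or less. UBE2L6, at 14.9 with a range of 13.8 to 15.9, was not separated from IFI6. In DMSO, IRF7 had stood far lower in that order, at 4.46 CPM per kb.

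The same drug at 4 and 24 h can be compared gene by gene, since the DMSO libraries differ. Of the 8 genes that fell with i-BET858 at 4 h, 7 (87.5%) were also lower at 24 h, beside 76.2% of all members tested at 24 h, and these 7 are 21.9% of the 32 lower at that time. IFIT5 was the exception. For i-BET151 it was 8 of 10 (80.0%), which are 25.0% of 32, with IFIT5 and PLSCR1 as exceptions. Of the genes higher at 4 h, 3 of 4 (75%) were higher at 24 h with i-BET858 and 2 of 2 with i-BET151, beside 9.52% of all members tested at 24 h and 20.5% and 17.2% of all genes.

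The change itself was tested as the difference between the effects at 24 and 4 h in a fit of all 18 libraries, in which 44 genes could be tested. With i-BET858 the effect at 24 h was lower for 27 genes (61.4%, against 12.6% of 18154 genes) and higher for 1, IFIT5 (2.27%, against 14.6%). With i-BET151 it was lower for 21 (47.7%, against 6.82% of all genes) and higher for none (6.99% of all genes). With the replicate block 25 were lower and 1, again IFIT5, was higher (12.0% and 13.2% of all genes). The median change was −1.63 and −1.40 on the log2 scale, beside 0.0031 and 0.0070 over all genes. Among the called genes TRIM22 changed most, by −5.38 ± 0.87 and −3.84 ± 0.81, followed by IFI44L, with −4.95 ± 0.80 and −3.61 ± 0.75. OAS2, with few counts and none in the drug libraries of 24 h, was not called. IRF7, STAT2, HERC5 and IFI6 were not among the called genes, with changes between −0.37 and 0.12.

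**Figure D5:**
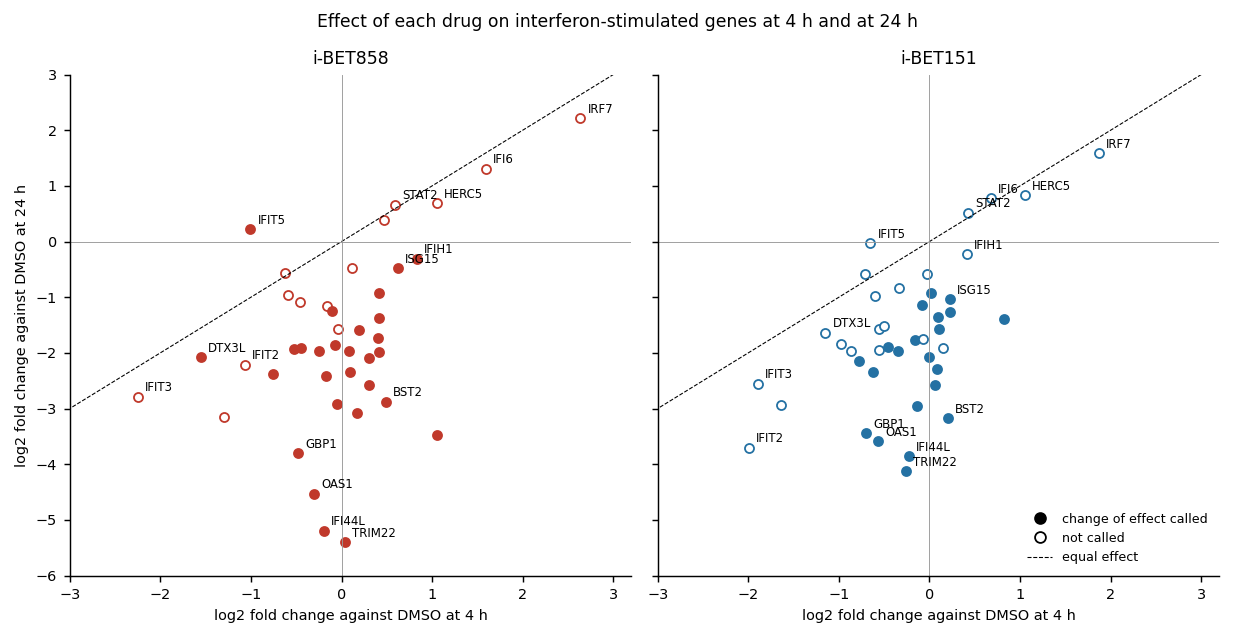
Log2 fold change against DMSO at 24 h (vertical) plotted against that at 4 h (horizontal) for each interferon-stimulated gene tested at both times, i-BET858 left and i-BET151 right; the dashed line marks equal effects and filled points had a called change of effect. IRF7, IFI6, HERC5 and STAT2 lie near the line, IFIT5 of i-BET858 lies above it at 0.22 against −1.01, and most other points fall below it.

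The drugs were compared with each other at the same dose and time, 1 pair at each of 2 time points, with p-values adjusted over all genes tested. None of these genes was called by edgeR at either time (0.971% of all genes at 4 h and 0.21% at 24 h). Before adjustment, 4 of 43 and 10 of 42 had a p under 0.05 in this test. The share of all genes at that unadjusted threshold was not taken, so these counts are no result about the list. DESeq2 called 3 (IRF7, IFI6 and DTX3L) at 4 h, with 5.21% of all genes that had an adjusted p, and 2 (IRF7 and ISG15) at 24 h, with 2.97%. The replicate block called 5 (IRF7, IFI6, DTX3L, GBP2 and IFITM3) and 3 (IRF7, ISG15 and DTX3L), beside 9.63% and 4.37% of all genes. Without replicate 3 the counts were 2 and 9, beside 2.29% and 7.29% of all genes.

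At 4 h IRF7 and IFI6 were called in the same 5 of the alternatives other than leaving out a library, and at 24 h IRF7 and ISG15 in the same 4. For IRF7 the difference of i-BET858 over i-BET151 was 0.76 on the log2 scale at 4 h (95% interval 0.32 to 1.20, adjusted p = 0.107) and 0.63 at 24 h (0.37 to 0.89, adjusted p = 0.0692). Over the alternatives other than leaving out a library the adjusted p ran from 0.00189 to 0.226 at 4 h and from 0.000573 to 0.135 at 24 h. At 24 h it was also called without DMSO replicate 3 (adjusted p = 0.0461). IFI6 had a difference of 0.92 at 4 h (0.32 to 1.52, adjusted p = 0.158) and 0.53 at 24 h (0.17 to 0.90, adjusted p = 0.229). DTX3L lay the other way, at −0.40 at 4 h (−0.62 to −0.18, adjusted p = 0.0943) and −0.44 at 24 h (−0.71 to −0.17, adjusted p = 0.188). ISG15 was 0.55 higher with i-BET858 at 24 h (0.27 to 0.82, adjusted p = 0.117), and OAS1 was at −0.94 (−1.54 to −0.35, adjusted p = 0.194).

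For the other genes the intervals say how far the drugs could differ. At 24 h the log2 difference was 0.14 for STAT2 (−0.20 to 0.49), 0.00032 for IRF1 (−0.35 to 0.35), −0.082 for MX1 (−0.75 to 0.58) and 0.37 for IFIT1 (−0.69 to 1.44). At 4 h it was 0.16 for STAT2 (−0.37 to 0.68), 0.40 for IRF1 (−0.0011 to 0.80), 0.39 for ISG15 (−0.20 to 0.99), 0.26 for OAS1 (−0.34 to 0.86), 0.46 for MX1 (−0.30 to 1.22) and 0.52 for IFIT1 (−1.09 to 2.13). These do not show that the drugs act alike, since differences of 2-fold are inside several intervals.

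The DMSO libraries of 24 and 4 h were also compared with each other. None of 44 genes was called by edgeR (0.0386% of all genes), and DESeq2 called 1, PSMB9 (1.28% of all genes with an adjusted p). By edgeR 3 had an unadjusted p under 0.05, and the share of all genes at that threshold was not taken. The median difference was 0.082 on the log2 scale.

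The rest of the pathway was read from lists of other genes. Of 9 interferon genes, IFNB1 and IFNG had no count, and IFNA1, IFNA2, IFNK, IFNL2 and IFNL3 were not tested. IFNE, a type I interferon of epithelia, had 20, 10 and 0 counts in the DMSO libraries of 24 h. The i-BET858 libraries held 75, 54 and 10 counts and the i-BET151 libraries 99, 52 and 15, and both groups overlapped DMSO in CPM. Its log2 fold changes at 24 h, 1.82 ± 1.01 and 2.20 ± 1.01, were not called (adjusted p = 0.177 and 0.121), while the replicate block called IFNE higher with both drugs at 24 h (adjusted p = 0.0132 and 0.00542) and at 4 h (0.0309 and 0.0238). IFNL1, a type III interferon, was at 0 in all DMSO libraries at 4 h, at 0.538, 0 and 0.560 CPM with i-BET858 and at 0.272, 0.213 and 0.469 CPM with i-BET151, and was called higher with i-BET858 (adjusted p = 0.0265). The call rests on 15, 0 and 20 counts, was lost in 5 of the 9 fits with 1 library left out, and an i-BET858 library overlaps DMSO at 0.

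Of 6 receptor chains, 5 were tested at 4 h, and 4 fell with i-BET858 and 2 with i-BET151 at 4 h (16.3% and 8.43% of all genes lower). IFNLR1 with i-BET858 had a log2 fold change of −1.86 at 4 h. Its call was lost without any 1 of the DMSO libraries and without i-BET858 replicate 1 or 2 (adjusted p from 0.0555 to 0.109). IFNAR1, a chain of the type I receptor, fell by 1.02 and 0.80 on the log2 scale, from a mean of 148.8 to 73.3 and 85.2 CPM. At 24 h it was not called, and IFNGR2, of the type II receptor, had the largest fall, by 2.10 and 1.09 on the log2 scale. The drugs differed for IFNGR2 at 24 h (−1.01 ± 0.16, adjusted p = 0.0485), a call lost in 8 of 9 fits with 1 library left out.

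Of the kinases, JAK1 and JAK2 moved the other way. At 24 h JAK1 rose by 0.77 ± 0.11 and 0.87 ± 0.11 on the log2 scale (adjusted p = 0.000291 and 0.000218) and JAK2 by 0.90 ± 0.19 and 1.04 ± 0.19. TYK2 was at 0.19 ± 0.12 and 0.10 ± 0.12. At 4 h, JAK1 and TYK2 were called higher with i-BET858, at 0.42 and 0.38, and neither was with i-BET151, while JAK2 was at 0.49 and 0.32. The TYK2 call was lost in 5 of 9 fits with 1 library left out (adjusted p up to 0.116) and that of JAK1 without i-BET858 replicate 2 (adjusted p = 0.051).

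Of other IRF factors, IRF2, which opposes IRF1, fell in all 4 comparisons with DMSO, with log2 fold changes of −0.91 and −0.97 at 4 h and −0.96 and −0.87 at 24 h. Of 10 genes that sense nucleic acids or pass the signal on, 9 were tested, and 5 (i-BET858) and 3 (i-BET151) fell at 4 h (16.3% and 8.43% of all genes lower) and 6 and 5 at 24 h (21.3% and 16.6%), with none called higher. Leaving out 1 library ended calls of RIGI, MAVS, IKBKE and TBK1 at 4 h and of RIGI, DHX58, IKBKE and EIF2AK2 at 24 h. TBK1, the kinase that activates IRF3, fell by 1.5 and 0.74 on the log2 scale at 4 h, the latter a call lost in 6 of 9 such fits (adjusted p up to 0.18), and was not called at 24 h. TLR3, a receptor for double-stranded RNA in endosomes, had the largest fall at 24 h, by 3.52 and 5.27 on the log2 scale, from 4.32 to 5.35 CPM in DMSO to at most 0.825 CPM. The log2 fold change of i-BET858 became −4.41 without i-BET858 replicate 3, and that of i-BET151 became −6.21 without i-BET151 replicate 1. STING1, which relays cytosolic DNA sensing, fell by 2.26 and 2.85.

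Of 5 negative regulators, SOCS1, which blocks JAK kinases, rose most. It was at 2.51, 2.22 and 1.90 CPM in DMSO at 4 h, at 23.2, 20.2 and 28.1 CPM with i-BET858 and at 11.3, 11.3 and 7.23 CPM with i-BET151. No groups overlapped. The rise on the log2 scale was 3.43 ± 0.24 (adjusted p = 3.06e-06) for i-BET858 and 2.17 ± 0.23 (adjusted p = 0.000145) for i-BET151. SOCS1 differed between the drugs by 1.26 ± 0.22 (adjusted p = 0.0296), a call lost in 8 of 9 fits with 1 library left out, with adjusted p up to 0.128. SOCS3 was also called between the drugs at 4 h, 0.72 higher with i-BET858 on the log2 scale. Its call was lost without DMSO replicate 2, i-BET151 replicate 1 or 2 or any 1 of the i-BET858 libraries (adjusted p up to 0.153). Of all genes, 0.971% were called. At 24 h SOCS1 was higher with i-BET858 by 1.79 ± 0.33, and with i-BET151 it had 0.86 ± 0.33 (adjusted p = 0.0674).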

How the data were processed

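RNA of OVCAR-3 cells was measured by RNA sequencing in 18 libraries. The values deposited by the authors are raw counts per gene without normalisation. According to the paper's methods and the submitters' processing notes, reads were aligned to GRCh38 with STAR, which also counted them, and DESeq2 was used for the study's tests. The gene annotation and the strand setting are not given in the sources used here, so reads of a gene and of an overlapping antisense gene may not be told apart. Symbols, positions and exon lengths came from GENCODE 44, to which 58472 of 58825 identifiers (99.4%) matched.

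Counts were tested with edgeR 4.0.16 in R 4.3.3 (TMM, filterByExpr, quasi-likelihood test, Benjamini-Hochberg adjustment over all genes tested), with the 9 libraries of a time point in 1 fit. The difference between time points was the drug-by-time term in a fit of 18 libraries. Genes were called at an adjusted p under 0.05. Fold changes are from the fit, with SE from the test statistic. The fit was also run on simulated counts with known changes, without a replicate effect and with changes only in genes of higher counts. That run does not bear on replicate effects or on genes with few counts, and its outcome is not given here. The genes named are, in each comparison with DMSO, up to 5 called genes with the largest rise and 5 with the largest fall (average log2 CPM of at least 0), up to 3 of each elsewhere, and always STAT2, IRF9, IRF1, IRF7, ISG15, IFIT1, MX1 and OAS1. Other genes are given by role group, or were named after their values were seen. The genes and lists were chosen with earlier results of these data known. Alternatives were DESeq2 1.42.0, other scalings and filters, a replicate block, libraries left out, and a minimum of 2-fold.

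The labels number the replicates. After group means were taken out, same-numbered libraries correlated across genes with r between 0.126 and 0.344 at 4 h and between 0.145 and 0.330 at 24 h, against −0.311 to 0.216 and −0.304 to 0.285 for other numbers. All of the former passed 0.1, but the ranges overlap, so the numbers may pair the libraries and do not settle it. The main tests held no block for the numbers, since the paper's methods name none, and so leave a possible pairing out. Calls with the replicate block are given as an alternative, and were more numerous at 4 h and between the drugs. The paper calls the replicates biological, and no source says whether numbers share a day, so p-values measure the spread between these cultures of 1 line. Some genes of the pathway are not reported here.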

Additional observations from a re-analysis of the deposited data

Results flagged for a closer look

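These results were picked out because the effect of a drug at 24 h differed from its effect at 4 h by the drug-by-time term of edgeR. For i-BET858 the log2 changes of effect were −5.38 for TRIM22, −4.95 for IFI44L, −4.49 for IFITM1, −4.18 for OAS1, −2.20 for MX1, −1.30 for IRF1 and −1.06 for ISG15, and 1.27 for IFIT5. For i-BET151 they were −3.84 for TRIM22, −3.61 for IFI44L, −3.36 for BST2, −3.0 for OAS1, −1.69 for MX1, −1.24 for ISG15 and −0.92 for IRF1. Leaving out 1 library ended the call of ISG15 in 2 of 18 fits for i-BET858 (i-BET858 4 h replicate 1, adjusted p = 0.0685, and DMSO 4 h replicate 3, 0.0503) and in 1 for i-BET151 (i-BET151 4 h replicate 1, 0.0507). It ended that of MX1 with i-BET151 in 5 of 18 fits (adjusted p from 0.0577 to 0.0837). Without DMSO 24 h replicate 3 the changes of TRIM22 became −4.53 and −2.99, without i-BET858 24 h replicate 2 that with i-BET858 became −6.06, and without i-BET151 24 h replicate 3 that of IFI44L with i-BET151 became −4.67. IFITM1 was at 0 to 0.0561 CPM with i-BET858 at 24 h, so its size is uncertain.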

How the results depend on the processing

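The counts of genes called at 24 h against DMSO stayed within 1.5 times under every alternative run, from 29 to 39 with i-BET858 and from 30 to 41 with i-BET151, and so did the counts of changed effects between time points (24 to 34 and 20 to 27). At 4 h the counts of 12 and 12 became 20 and 20 with the replicate block and 7 and 6 with a fold change of at least 2, and the cause was not tested. The count of 0 between the drugs became at 4 h 3 with DESeq2, 1 with total library size, 2 without a low-count filter, 5 with the block, 2 without replicate 3 and 2 with all 18 libraries in 1 fit. At 24 h it became 2 with DESeq2, 3 without a filter, 3 with the block and 9 without replicate 3. The count of 0 between DMSO at 24 and 4 h became 1 with DESeq2. With 1 library left out, the counts ran from 8 to 14 (i-BET858) and 7 to 13 (i-BET151) at 4 h, 33 to 37 and 33 to 38 at 24 h, 0 between the drugs at 4 h, 0 to 1 between them at 24 h (1 without DMSO replicate 3), 25 to 30 and 18 to 23 for the changes of effect, and 0 for DMSO over time.

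Total library size moved the median over all genes by −0.16 for i-BET858 at 4 h, where 32.0% of all calls were then higher against 47.1% with TMM, and 4 of these genes were higher and 9 lower. The replicate block added ISG15, IRF1, SAMD9, IFIT2, IFITM2, IFITM3, STAT2 and IFI35 with i-BET858 at 4 h, IFI6, GBP2, PSMB9, STAT2, OAS1, OAS3, EPSTI1 and MX1 with i-BET151 at 4 h, IFITM1 with i-BET858 at 24 h, and CMPK2 and PLSCR1 with i-BET151 at 24 h. For the change of effect it added GBP2 with i-BET858 and DTX3L, DDX60, SAMD9, IFIT5 and MX2 with i-BET151. Between the drugs it added IRF7, IFI6, DTX3L, GBP2 and IFITM3 at 4 h and IRF7, ISG15 and DTX3L at 24 h, and it changed no other call of these genes.

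Signs turned only for values that passed no test. IFIT1 with i-BET858 at 4 h was 0.21 without replicate 3 and −0.72 to 0.65 with 1 library left out, and with i-BET151 −1.26 to 0.13. MX1 with i-BET858 at 4 h was −0.40 to 0.19. IRF1 with i-BET151 at 4 h was −0.043 with total library size and −0.093 to 0.25 with 1 library left out. Between the drugs, STAT2 (−0.083 to 0.33) and IFIT1 (−0.16 to 1.22) turned at 4 h. At 24 h IRF1 was −0.054 with total library size, −0.000552 with at least 10 counts in every library and −0.077 to 0.17 with 1 library left out, and MX1 was 0.010 without replicate 3 and −0.24 to 0.16. The change of effect of STAT2 was −0.090 to 0.25 with i-BET858, and −0.16 to 0.26, or −0.13 without replicate 3, with i-BET151. Between DMSO at 24 and 4 h, IRF1 was 0.025, 0.013 and 0.18 under total library size, 10 counts and without replicate 3 and −0.12 to 0.21 with 1 library left out, IFIT1 was −0.45 to 0.78, and MX1 was −0.14 without replicate 3 and −0.028 to 0.52.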
